A study of Homo sapiens with 12 samples.

Results

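The genes described here are those that encode the chains of collagens and laminins. They were chosen by symbol, as every gene of the table whose symbol is COL, a number, A and a number, or LAM, one of the letters A, B or C, and a digit. The rule took 56 of the 26485 genes in the table, 44 of them collagens and 12 laminins. Of these, 31 genes (24 collagens and 7 laminins) had a normalised read count of at least 1 in at least 3 of the 12 libraries and were tested. The other 25 genes (20 collagens and 5 laminins) were silent by that limit and are described apart.

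Collagens are secreted proteins of 3 chains wound into a triple helix. Fibrillar collagens form the fibres of connective tissue, the FACIT collagens lie on the surface of such fibres, type VI collagen forms beaded filaments, and type IV collagen forms the sheet-like network of the basement membrane, the thin matrix on which epithelial cells rest. Laminins are cross-shaped proteins built from an alpha, a beta and a gamma chain. They form the other network of the basement membrane, and integrins on epithelial cells bind them.

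BT474 is an established human HER2-positive breast cancer cell line, and lapatinib blocks the kinase activity of HER2 and EGFR. Messenger RNA was sequenced from wild-type BT474 cells in 4 groups of 3 libraries. Control cells were taken at day 0, drug-tolerant persisters (DTP) at day 9, expanded drug-tolerant persisters (DTEP) at month 6, and long-term resistant cells (LR) at month 9 of culture in 1 µM lapatinib, with cells of the same line in every group. The treatment label of the Control libraries also reads 1 µM lapatinib, but their titles give Control and day 0, and they were read as untreated on that ground. The authors describe libraries of a group as technical replicates in one place and plates grown in parallel in another, so n counts libraries and p-values measure the spread between libraries, which may be technical.

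Depth was 16383363 to 25030482 assigned reads per library. The values are normalised read counts, which are reads scaled to a fixed total of the library size adjusted by a trimmed mean (TMM), so a single read was worth 0.0412 to 0.0576 and a library without a read allowed a level of up to 0.124 to 0.173 (3 reads, counting error only). DTEP replicate 3 stood apart from its group. Across genes, its Pearson's r was 0.934 and 0.962 with the other DTEP libraries and 0.971 to 0.986 with the LR libraries, so the changes of members from DTP to DTEP are given with and without it. All 7 luminal markers (ERBB2, GATA3, KRT8, KRT18, KRT19, EPCAM and CDH1) were detected in every group, with summed levels of 10520 to 11263 in Control, 12878 to 15300 in DTP cells, 4240 to 6171 in DTEP and 3991 to 5450 in LR. At an adjusted p below 0.05 (limma), 2 rose and 5 fell from DTP to DTEP, beside 35.7% and 32.6% of all genes tested. From Control to LR 1 rose and 5 fell, beside 30.2% and 32.6%. All 7 fibroblast markers were below 1 in every library, with summed levels of at most 0.230. Among basal markers KRT5, KRT14, ACTA2 and CNN1 were below 1 in every library, whereas TP63 was at 4.94 ± 0.62 in Control and 42.6 ± 24.8 in LR (SD, n = 3). Of the 3 basal markers tested, TP63 rose from Control to LR and 2, MYLK and OXTR, fell at an adjusted p below 0.05 (limma). The median change of the 3 was -0.90. The summed level of the 7 basal markers was 11.8 to 14.0 in Control, 4.38 to 6.79 in DTP cells, 9.28 to 32.9 in DTEP and 20.7 to 67.2 in LR. Of 4 endothelial markers, PECAM1, CDH5 and TEK were below 1 in every library and VWF went from 8.09 ± 0.42 in Control to 2.10 ± 0.37 in DTP and 0.118 ± 0.066 in LR (SD, n = 3), and the part of these markers in the results below was not tested. In bulk RNA, fewer cells of a type and less RNA per cell cannot be told apart.

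The type IV genes lie in head-to-head pairs that start close to each other and are read in opposite directions, so each pair shares the stretch between its starts. These stretches are shown because the members of each pair are compared below. They are from RefSeq on GRCh38.p14, on the plus strand and outside both genes. Capitals mark GC boxes (GGGCGG or its reverse complement CCGCCC) and CCAAT boxes (CCAAT or its reverse complement ATTGG), none of which overlap. The stretch of COL4A1 and COL4A2 (126 bases, chr13:110307158-110307283) and that of COL4A4 and COL4A3 (135 bases, chr2:227164489-227164623) are printed whole, and that of COL4A6 and COL4A5 is given as the 250 bases before COL4A5 (chrX:108439588-108439837) of 379.
COL4A1 and COL4A2: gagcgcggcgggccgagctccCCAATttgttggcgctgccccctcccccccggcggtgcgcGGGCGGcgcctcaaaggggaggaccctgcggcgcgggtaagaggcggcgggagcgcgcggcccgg
COL4A4 and COL4A3: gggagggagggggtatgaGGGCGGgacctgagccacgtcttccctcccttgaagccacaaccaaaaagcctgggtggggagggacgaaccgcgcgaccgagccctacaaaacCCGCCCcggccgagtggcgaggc
COL4A6 and COL4A5: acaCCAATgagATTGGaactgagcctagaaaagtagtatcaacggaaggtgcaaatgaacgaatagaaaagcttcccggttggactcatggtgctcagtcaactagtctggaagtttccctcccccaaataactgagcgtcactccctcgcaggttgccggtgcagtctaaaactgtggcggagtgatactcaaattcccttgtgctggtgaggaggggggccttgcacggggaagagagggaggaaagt
The COL4A1 and COL4A2 stretch was 80.2% G and C and held 1 GC box and 1 CCAAT box. The COL4A4 and COL4A3 stretch was 68.1% G and C, with 2 GC boxes and no CCAAT box. The 250 bases shown for COL4A6 and COL4A5 were 51.2% G and C, with no GC box and 2 CCAAT boxes. The rest of that stretch was not scanned. Over 34943 promoters, a GC box was present in 34.5% of windows of 126 bases, 35.5% of 135 bases and 42.5% of 250 bases, and a CCAAT box in 21.1%, 22.1% and 32.0%. The median G and C content was 60.3%, 60.0% and 58.0% at these lengths. A match is a run of letters and was not tested as a binding site.

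Type IV collagen changed chain by chain across the treatment. COL4A1 and COL4A2 encode the chains of the most widespread type IV network, COL4A3, COL4A4 and COL4A5 those of a network of kidney, lung and other specialised basement membranes, and COL4A5 also combines with COL4A6, in smooth muscle and some epithelia. COL4A5 fell at day 9 and then reached levels far above Control at months 6 and 9, COL4A6, with few reads in Control and DTP cells, rose between day 9 and month 6, and COL4A2, COL4A3 and COL4A4 were lower in every later library than in any Control library.

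COL4A5 (chromosome X, 108439838 to 108697545) was at 8.78, 9.68 and 8.62 in the Control libraries and at 1.25, 2.91 and 4.61 in the DTP libraries. It was at 101, 92.9 and 142 in DTEP and at 232, 153 and 419.7 in LR. None of the 4 groups overlapped another. The level fell by 1.45 on the log2(value + 1) scale from Control to DTP (SE 0.36, adjusted p = 0.00551, limma) and rose by 4.92 from DTP to DTEP (SE 0.36, adjusted p = 2.98e-07, limma), a ratio of group means of 38.3. From Control to LR it rose by 4.62 (SE 0.36, adjusted p = 4.61e-07, limma), a ratio of 29.7. The difference from DTEP to LR was 1.15 (SE 0.36, adjusted p = 0.0653, limma). Without DTEP replicate 3 the change from DTP to DTEP was 4.74, and without LR replicate 3, the highest library, the change from Control to LR was 4.24.

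COL4A6 (chromosome X, 108155614 to 108439458), the partner that shares the stretch between starts with COL4A5, had 11 reads over the Control libraries and 4 over the DTP libraries. Its values were 0.0460, 0.272 and 0.233 in Control and 0.157, 0 and 0.0576 in DTP. They were 8.28, 5.44 and 3.37 in DTEP and 6.13, 3.93 and 29.7 in LR. Every DTEP and LR library stood above every Control and DTP library, and LR replicate 3 was again the highest. The change was 2.58 from DTP to DTEP (SE 0.52, adjusted p = 0.000791, limma) and 3.12 from Control to LR (SE 0.52, adjusted p = 0.000224, limma), and 2.33 for the latter without LR replicate 3. The former was 2.85 without DTEP replicate 3. The ratio of the DTEP mean to the Control mean was 31.0, against the 11 Control reads. Per kilobase of exon, COL4A5 was 9.58 to 32.9 times COL4A6 in the DTEP libraries and 11.0 to 30.4 times in the LR libraries.

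The other type IV genes stayed below their Control levels at months 6 and 9, when COL4A5 and COL4A6 were above theirs. COL4A2 was at 3.96, 3.37 and 2.98 in Control, 0.574, 0.444 and 0.115 in DTP, 0.191, 0.124 and 0 in DTEP and 0, 0.221 and 0.145 in LR. COL4A3 was at 2.94, 3.86 and 2.42 in Control, 0.731, 0.691 and 1.44 in DTP, 0.191, 0.206 and 0.0561 in DTEP and 0, 0.0553 and 0 in LR. COL4A4 was at 3.68, 2.28 and 2.93 in Control, 0.365, 0.247 and 0.576 in DTP, 0.0478, 0.0412 and 0.0561 in DTEP and 0.0845, 0 and 0 in LR. For all 3 genes every Control library stood above every later library. From Control to DTP COL4A3 fell by 1.07 (adjusted p = 0.000265, limma), and it fell by a further 0.74 from DTP to DTEP (adjusted p = 0.00175, limma), a change of -0.68 without DTEP replicate 3. COL4A2 and COL4A4 reached a value of 1 in Control libraries alone, so they passed the limit on low values only through the group in which they were high, and their differences from Control of -1.70 and -1.498 at day 9 are descriptions. COL4A1, the partner of COL4A2, was silent by the limit, at 0.230, 0.707 and 0.792 in Control, 0.0522, 0 and 0.0576 in DTP, 0.0957, 0 and 0 in DTEP and 0 in every LR library. In Control, COL4A2 was 2.86 to 13.1 times COL4A1 per kilobase of exon.

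**Figure D1:**
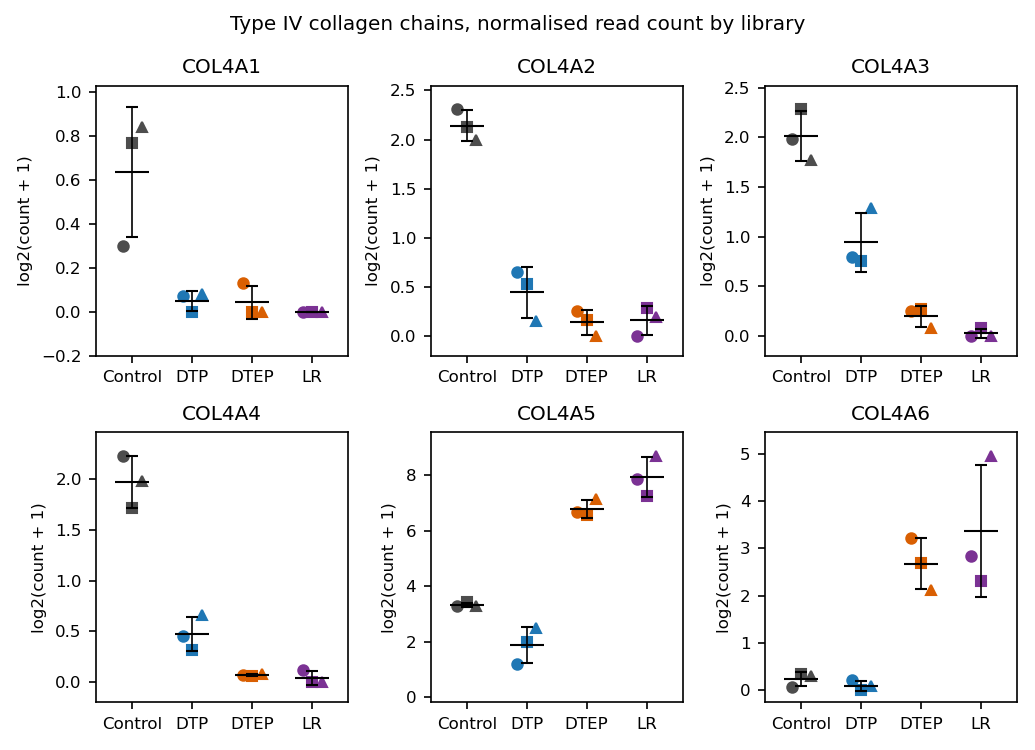
Normalised read counts of the 6 type IV collagen genes on a log2(count + 1) axis, with a panel for each gene and its own scale. Points are libraries of Control, DTP, DTEP and LR (circle, square and triangle for replicates 1, 2 and 3), and bars are the mean ± SD of 3 libraries. COL4A5 and COL4A6 stand higher in every DTEP and LR library than in any Control or DTP library, and COL4A2, COL4A3 and COL4A4 are highest in the Control libraries.

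The neighbourhood of COL4A5 and COL4A6 on chromosome X was examined after their values were seen. Within 500000 bases on either side, 6 other genes were tested, and from Control to LR 3 of them were called higher by limma, where 5.03% of all genes tested were. These were IRS4, which encodes an adaptor of insulin receptor signalling, the non-coding LOC101928358, and TSC22D3, a glucocorticoid-induced regulator. The mean of IRS4 was 0.0615 in Control, 0.128 in DTP cells, 16.2 in DTEP and 34.7 in LR. The other 3 were under the limit of 2 in size for a call. Of these, ATG4A and MID2 rose from Control to LR, by 0.67 and 0.87 (adjusted p = 0.0133 and 0.00537, limma), and the change of PSMD10 was 0.30 (adjusted p = 0.145, limma). From DTP to DTEP all 3 rose, ATG4A by 1.14, MID2 by 0.89 and PSMD10 by 0.75 (adjusted p = 0.000338, 0.00403 and 0.0018, limma). MID2 had fallen by 0.89 from Control to DTP (adjusted p = 0.00608, limma), and its change from Control to DTEP was 0.004 (adjusted p = 0.988, limma). IRS4 and LOC101928358 were called higher from DTP to DTEP, where 8.13% of all genes were. The change of TSC22D3 was 0.37 (adjusted p = 0.167, limma).

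Among laminins, the chains of the broadly expressed trimers were the most abundant, and the balance between the beta chains LAMB1 and LAMB2 shifted after day 9. LAMB1 encodes a beta chain found in most basement membranes and LAMB2 the beta chain known from kidney, muscle and vessel basement membranes. LAMB1 fell after day 9 and LAMB2 rose.

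LAMB1 (chromosome 7, 107923799 to 108003161) was at 143, 141 and 145 in Control, 219, 233 and 251 in DTP, 37.9, 14.0 and 12.4 in DTEP and 16.9, 13.7 and 43.0 in LR. All DTEP and LR libraries lay below all Control libraries. The fall from DTP to DTEP was 3.56 (SE 0.41, adjusted p = 1.03e-05, limma), a ratio of 10.9, and the change was -3.28 without DTEP replicate 3. From Control to LR the level fell by 2.67 (adjusted p = 0.000126, limma). DTP libraries were 1.64 times Control with no overlap, but the adjusted p was 0.169 by limma.

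LAMB2 (chromosome 3, 49121114 to 49133050) was at 99.1, 96.8 and 98.1 in Control, 163, 147 and 136 in DTP, 211, 312 and 639 in DTEP and 568, 472 and 553 in LR. The groups followed the order of time in their means, with DTEP replicate 3 above every LR library. The rise from DTP to DTEP was 1.22 (SE 0.29, adjusted p = 0.00275, limma) and 0.78 without DTEP replicate 3. From Control to LR it was 2.42 (SE 0.29, adjusted p = 1.79e-05, limma), a ratio of 5.42. Of all laminin signal, LAMB2 made up 20.8% ± 0.2 in Control and 63.7% ± 7.4 in LR, and LAMB1 30.4% ± 0.3 and 2.77% ± 1.37 (SD, n = 3). Per kilobase of exon, the ratio of LAMB2 to LAMB1 was 1.83 to 1.87 in Control, 15.1, 60.3 and 139.5 in DTEP and 34.9 to 93.1 in LR. With the longest coding transcript as the length, it was 0.690 to 0.706 in Control, so which beta chain was higher in Control depended on the length used, whereas LAMB2 was higher in every DTEP and LR library by both lengths.

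These beta chains join an alpha and a gamma chain. LAMA5, the main alpha chain of mature epithelial basement membranes, was at 93.4, 81.6 and 95.2 in Control, 58.9, 48.4 and 43.3 in DTP, 62.2, 135 and 161 in DTEP and 153, 195 and 176 in LR. It fell by 0.84 from Control to DTP (adjusted p = 0.0232, limma), rose by 1.14 from DTP to DTEP (adjusted p = 0.0031, limma), or 0.87 without DTEP replicate 3, and stood 0.94 higher in LR than in Control (adjusted p = 0.0105, limma). LAMC1, the gamma chain shared by most laminins, was at 129, 128 and 125 in Control, 65.5, 67.2 and 84.4 in DTP, 71.0, 75.0 and 74.2 in DTEP and 63.5, 51.0 and 209.6 in LR. LR replicate 3 was the highest of the 12 libraries and LR replicate 2 the lowest. No comparison of LAMC1 passed the test, with an adjusted p of 0.0898 from Control to DTP and 0.248 from Control to LR.

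LAMA3 and LAMB3 encode chains of the laminin of the contacts that anchor epithelial cells. They were low throughout. LAMA3 was at 4.19, 4.29 and 3.68 in Control, 3.91, 3.998 and 4.84 in DTP, 8.18, 8.98 and 0.954 in DTEP and 0.0422, 0 and 0.0484 in LR. DTEP replicates 1 and 2 were the highest of all libraries, and LR had 2 reads in all. The fall of 2.45 from DTEP to LR (SE 0.46, adjusted p = 0.0142, limma) was the only call among the members in that comparison. Without DTEP replicate 3 the change was -3.22, without DTEP replicate 1 it was -2.10 (adjusted p = 0.0505) and without DTEP replicate 2 it was -2.04 (adjusted p = 0.0719), so the call needed both of the latter.

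LAMB3 was at 3.82, 2.66 and 3.03 in Control, 2.66, 2.22 and 2.02 in DTP, 1.24, 0.453 and 0.337 in DTEP and 0.169, 1.27 and 1.26 in LR. It fell by 1.01 from DTP to DTEP (adjusted p = 0.00489, limma), a change of -0.86 without DTEP replicate 3. Its LR libraries overlapped those of DTEP.

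**Figure D2:**
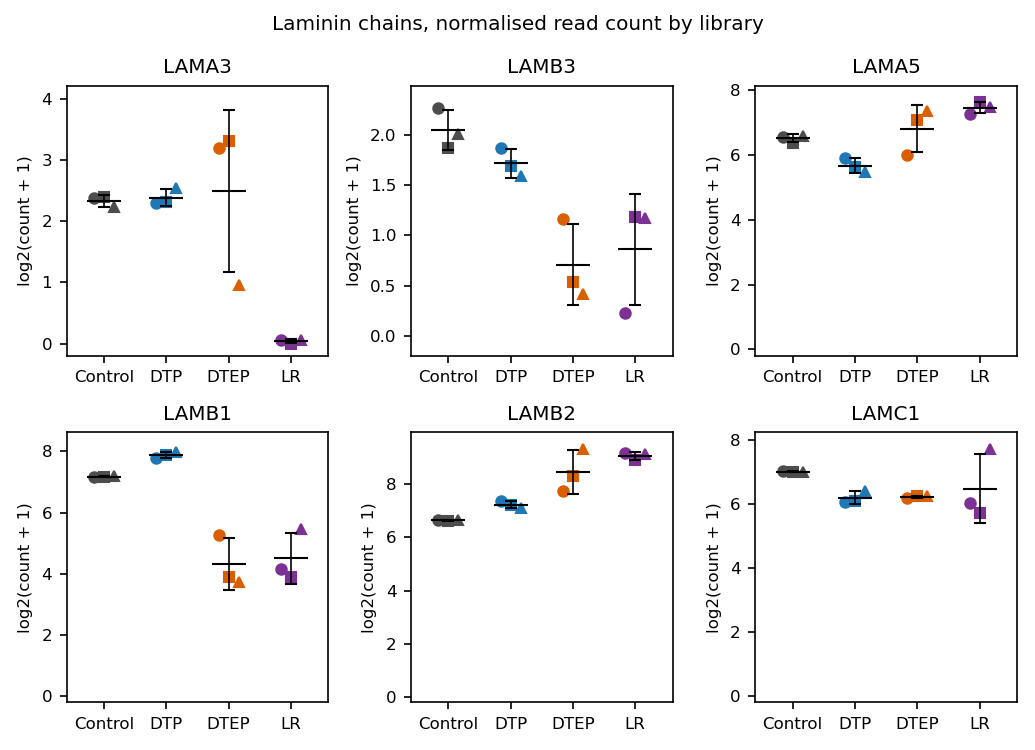
Normalised read counts of 6 laminin genes above the low-value limit, on a log2(count + 1) axis with a scale for each gene. Points are libraries (circle, square and triangle for replicates 1, 2 and 3) and bars are the mean ± SD of 3 libraries. LAMB1 drops from 219 to 251 in DTP to 12.4 to 37.9 in DTEP, LAMB2 is above its Control level in every later library, and LAMA3 is near 0 in every LR library.

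Among the collagens outside type IV, COL12A1 was the largest contributor in Control and DTP cells. It encodes the FACIT collagen type XII, which decorates collagen fibres. It was at 630.3, 603 and 584 in Control, 704, 768 and 1077 in DTP, 122, 66.9 and 11.2 in DTEP and 6.29, 6.75 and 91.9 in LR. All DTEP and LR libraries lay below all Control libraries, but their own values spread over more than 10-fold within each group. The fall from DTP to DTEP was 4.16 (SE 0.92, adjusted p = 0.00156, limma), or a change of -3.19 without DTEP replicate 3. From Control to LR the level fell by 5.12 (SE 0.92, adjusted p = 0.000412, limma), and the change was -6.33 without LR replicate 3. COL12A1 made up 74.8% ± 1.3 of the summed collagen signal in Control, 72.2% ± 6.4 in DTP cells, 18.3% ± 14.7 in DTEP and 5.25% ± 6.35 in LR, and COL4A5 made up 1.12% ± 0.09, 0.242% ± 0.113, 31.3% ± 7.9 and 50.0% ± 10.0 (SD, n = 3). The sum itself was 810 ± 23 in Control, 1168 ± 169 in DTP cells, 359 ± 15 in DTEP and 519 ± 184 in LR. These shares and sums are not corrected for gene length, which raises the share of a long gene such as COL12A1. Per kilobase of exon, COL12A1 was at 32.1 ± 1.2 in Control and COL1A1, the next collagen, at 6.14 ± 0.63 (SD, n = 3).

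COL5A1 was the member that rose most at day 9. It encodes a chain of type V collagen, a minor fibrillar collagen that starts the growth of type I fibres. It was at 2.02, 1.90 and 2.79 in Control, 26.1, 25.4 and 23.4 in DTP, 1.48, 0.947 and 0.225 in DTEP and 0.0422, 0.0553 and 0 in LR. The DTP libraries lay above all others. The rise from Control to DTP was 3.01 (SE 0.22, adjusted p = 1.25e-06, limma), a ratio of 11.1, and the fall from DTP to DTEP was 3.84 (SE 0.22, adjusted p = 4.67e-08, limma), a ratio of 28.2. Without DTEP replicate 3 the latter change was -3.56. Its partner chain COL5A2 did not pass the test in any comparison, at 7.40 to 8.34 in Control, 8.09 to 11.2 in DTP cells, 5.88 to 12.9 in DTEP and 6.86 to 12.5 in LR. The remaining type V gene COL5A3 was silent, at no more than 0.148.

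The type VI genes were at their lowest at months 6 and 9. COL6A1 (chromosome 21, 45981770 to 46005048) was at 12.1, 11.9 and 12.02 in Control, 19.0, 17.1 and 16.7 in DTP, 1.96, 0.618 and 0 in DTEP and 0 in every LR library. COL6A2 (chromosome 21, 46098112 to 46132848) was at 3.31, 2.83 and 3.91 in Control, 4.18, 2.96 and 3.40 in DTP, 0.191, 0.0412 and 0 in DTEP and 0 in every LR library. COL6A3 (chromosome 2, 237324018 to 237414164) was at 3.27, 2.72 and 3.21 in Control, 1.25, 2.22 and 2.13 in DTP, 0.144, 0.494 and 0 in DTEP and 0.127, 0.0553 and 0.0484 in LR. For all 3 genes each DTEP and LR library was below each Control and DTP library, and DTEP replicate 3 had no read. From DTP to DTEP all 3 fell, with changes of -3.46 for COL6A1 (adjusted p = 8.11e-07), -2.06 for COL6A2 (adjusted p = 1.91e-07) and -1.24 for COL6A3 (adjusted p = 5.22e-05), all by limma. Without DTEP replicate 3 these changes were -3.09, -2.01 and -1.12. COL6A3 had already fallen by 0.52 from Control to DTP (adjusted p = 0.0256, limma), with no overlap of these groups. Against the limit of 3 reads per library, LR was at least 72.2-fold lower than Control for COL6A1 and at least 20.2-fold lower for COL6A2. The COL6A2 call from DTP to DTEP was lost without DTP replicate 1 (-1.96).

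COL18A1, whose protein releases endostatin, lies on the same arm of chromosome 21 (45405165 to 45513720). It was at 14.9, 12.3 and 14.4 in Control, 16.02, 13.1 and 9.39 in DTP, 2.54, 3.01 and 1.35 in DTEP and 1.06, 0.277 and 2.03 in LR. All DTEP and LR libraries were below all Control and DTP libraries. It fell by 2.08 from DTP to DTEP (adjusted p = 8.15e-05, limma), a change of -1.85 without DTEP replicate 3 and of -1.91 without DTP replicate 1, both under the limit for a call. Between COL18A1 and COL6A2, 2 other genes were tested. Of these, PCBP3, an RNA-binding protein gene, had a mean of 2.304 in Control and 0 in LR, and SLC19A1, the folate carrier gene whose span overlaps COL18A1, had 17.6 and 7.56. PCBP3 fell by 1.27 from DTP to DTEP (adjusted p = 1.52e-06, limma) and by 1.72 from Control to LR (adjusted p = 1.28e-07, limma), and at its Control level a fall past the limit for a call is not possible on this scale. SLC19A1 fell by 1.15 from Control to LR (adjusted p = 0.0122, limma), which is under that limit.

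Of the other fibrillar genes, COL1A1 was the only chain of type I collagen above the low-value limit. COL1A1 was at 53.4, 50.9 and 61.7 in Control, 59.2, 55.8 and 48.1 in DTP, 79.8, 121 and 98.6 in DTEP and 104, 130.4 and 98.4 in LR. It rose by 0.85 from DTP to DTEP (adjusted p = 0.000804, limma), and by as much without DTEP replicate 3 (0.85), with no overlap of these groups. COL1A2, the partner chain of type I collagen, had 2 reads over the 12 libraries, and COL3A1, the type III chain of the same tissues, had 7. COL11A2, a type XI chain known from cartilage, was at 1.56, 1.14 and 1.12 in Control, 4.59, 5.43 and 4.09 in DTP, 3.64, 6.01 and 12.2 in DTEP and 9.29, 12.2 and 8.91 in LR. It rose by 1.33 from Control to DTP (adjusted p = 0.00328, limma) and was called from Control to LR, with a rise of 2.28 (adjusted p = 4.07e-05, limma). The other type XI chain COL11A1 had 2 reads in all. COL2A1, the cartilage collagen, rose by 0.90 at day 9 (adjusted p = 0.00173, limma), from a mean of 1.87 to 4.42, and fell by 1.35 at month 6 (adjusted p = 4.64e-05, limma), a change of -1.16 without DTEP replicate 3.

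COL27A1, a fibrillar collagen of cartilage, was at 9.13 to 11.8 in Control, 20.5 to 21.5 in DTP cells, 0.561 to 0.957 in DTEP and 0 to 0.388 in LR. It fell by 3.69 from DTP to DTEP (SE 0.17, adjusted p = 8.35e-09, limma), a ratio of 29.1. COL9A2, a chain of the FACIT collagen IX, was at 15.3 to 16.2 in Control, 21.3 to 33.5 in DTP cells, 1.11 to 2.87 in DTEP and 1.10 to 2.05 in LR, and fell by 3.39 in the same comparison (SE 0.26, adjusted p = 3.56e-07, limma), a ratio of 15.6. Without DTEP replicate 3 the change was -3.62 for COL27A1 and -3.26 for COL9A2. Both genes rose at day 9, by 0.95 and 0.70 (adjusted p = 0.000692 and 0.036, limma), before the fall. COL9A3, the partner of COL9A2, moved the opposite way, from 0.0987 to 0.522 in DTP to 1.63 to 3.40 in DTEP, a rise of 1.54 (adjusted p = 3.04e-05, limma) and of 1.76 without DTEP replicate 3, while its span overlaps TCFL5. The third type IX gene COL9A1 had no read.

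COL7A1, the anchoring fibril collagen that ties the basement membrane to the tissue below, was at 39.4, 33.8 and 37.8 in Control, 133, 106 and 90.5 in DTP, 31.7, 32.0 and 55.3 in DTEP and 41.2, 61.0 and 53.8 in LR. It stood above all other libraries at day 9 alone, with a rise of 1.53 (adjusted p = 0.000185, limma) and a later fall of 1.47 (adjusted p = 0.000105, limma), a change of -1.73 without DTEP replicate 3. COL17A1, the transmembrane collagen of hemidesmosomes, was at 2.98 to 3.59 in Control and fell by 1.25 at day 9 (adjusted p = 4.79e-05, limma). It had no read in LR, which is at least 19.6-fold lower than Control. COL14A1, a FACIT collagen, was at 6.30, 7.39 and 6.71 in Control and 0.731, 0.592 and 1.61 in DTP, with no overlap. Its fall of 2.01 at day 9 (adjusted p = 6.64e-06, limma) lay at the limit for a call and was under it without Control replicate 2 (-1.96), DTP replicate 1 (-1.93) or DTP replicate 2 (-1.87).

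The remaining members above the limit were COL16A1, COL25A1 and COL28A1. COL16A1, a FACIT collagen, was at 2.3 to 2.55 in Control and 5.91 to 8.69 in LR, a rise of 1.21 (adjusted p = 8.22e-05, limma). COL28A1 was at 5.20 to 5.64 in Control, 11.0 to 13.1 in DTP and 1.39 to 4.10 in DTEP, with a change of -1.95 from DTP to DTEP (adjusted p = 1.94e-05, limma), which passed the limit for a call without DTEP replicate 3 (-2.26). The neuronal transmembrane collagen COL25A1 reached a value of 1 in DTP libraries alone, at 1.09 to 1.497, against 0 to 0.322 in Control. It passed the limit on low values only through that group, so its changes to and from DTP are descriptions.

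**Figure D3:**
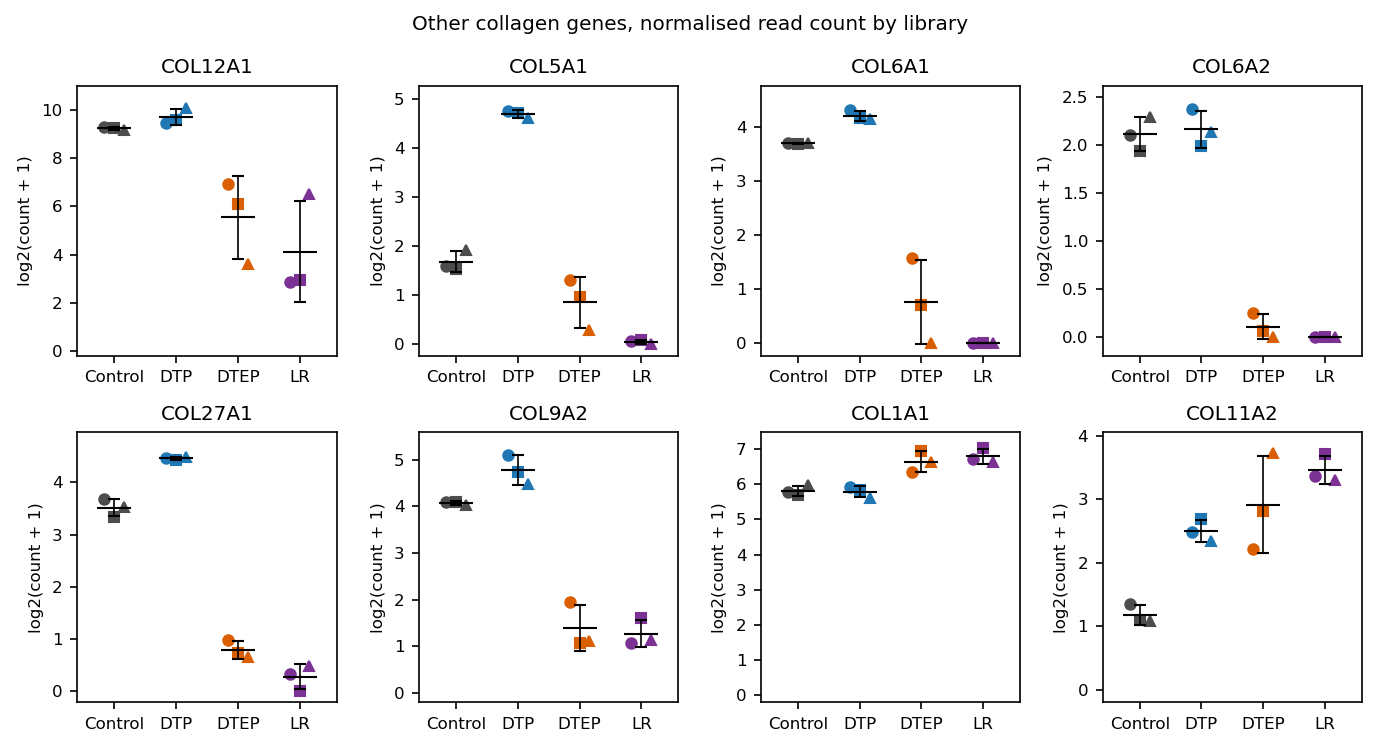
Normalised read counts of 8 collagen genes outside type IV on a log2(count + 1) axis, with a scale for each gene. Points are libraries (circle, square and triangle for replicates 1, 2 and 3) and bars are the mean ± SD of 3 libraries. COL5A1 is highest in DTP (23.4 to 26.1), COL12A1, COL6A1, COL6A2, COL27A1 and COL9A2 are lower in every DTEP and LR library than in any Control or DTP library, and COL1A1 and COL11A2 have their highest means in LR.

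Counted over the comparisons, the falls gathered in the transition from DTP to DTEP. A call here needs an adjusted p below 0.05 together with a log2 change of more than 2 in size. From Control to DTP, 1 member (COL5A1) was called higher, where 1.01% of all 13794 genes tested were, and 1 (COL14A1) lower, where 3.90% were. The median log2 change of the 31 members was 0.06, beside -0.01 over all genes tested. At the adjusted p alone, 8 members rose and 8 fell, against 25.2% and 28.8% of all genes. Among them were COL25A1, which rose, and COL4A2 and COL4A4, which fell, and each passed the limit on low values through 1 group only. Their changes to and from that group are descriptions, here and in the counts below.

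From DTP to DTEP, 2 members (COL4A5 and COL4A6) were called higher, where 8.13% of all genes were, and 9 lower, where 7.02% were. Among the 9 were COL12A1, COL5A1, COL27A1, LAMB1, COL6A1, COL9A2, COL18A1 and COL6A2. The median change of the members was -0.74, beside 0.08 over all genes. At the adjusted p alone, 6 members rose and 19 fell, against 35.7% and 32.6% of all genes.

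From DTEP to LR, 0 members were called higher by limma, where 0.225% of all genes were, and 1 (LAMA3) lower, where 0.457% were. At an unadjusted p below 0.05, 5 members were higher and 5 lower, and the share of all genes at that p was not computed. With edgeR, 1 member (COL25A1) was called higher and 3 lower, where 71 and 510 of all 13794 genes tested were. The median change was 0.03, beside -0.07 over all genes. At the adjusted p alone, 1 member (COL25A1) rose and 2 (LAMA3 and COL5A1) fell, against 3.04% and 4.31% of all genes. COL25A1 had 3 to 5 reads per DTEP library and 11 to 20 per LR library, and COL5A1 had 0 or 1 per LR library. Without LR replicate 3, COL25A1 and COL5A1 no longer passed (adjusted p = 0.0569 and 0.0778, limma).

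The comparisons of DTEP and LR with Control use the same Control libraries as the first. From Control to DTEP, 2 members were called higher, where 4.43% of all genes were, and 9 lower, where 6.20% were, with a median of -0.97 beside 0.02 over all genes. At the adjusted p alone, 7 members rose and 17 fell, against 29.5% and 28.7% of all genes. Of these calls, COL18A1 (-1.98) and COL4A2 (-1.93) were lost without DTEP replicate 3, and COL6A2 without Control replicate 3 (-1.92), DTEP replicate 2 (-1.99) or DTEP replicate 3 (-1.96), whereas COL11A2 (2.09) and LAMB2 (2.18) were called higher without DTEP replicate 1. From Control to LR, 4 members (COL4A5, COL4A6, LAMB2 and COL11A2) were called higher, where 5.03% were, and 10 lower, where 7.80% were, with a median of -1.22 beside -0.03. At the adjusted p alone, 9 rose and 18 fell, against 30.2% and 32.6%. The 10 were COL12A1, COL6A1, COL27A1, COL18A1, COL9A2, LAMB1, COL14A1, LAMA3, COL6A2 and COL17A1. Since 1 is added before the logarithm, a gene below 3 in Control cannot fall by more than 2 on this scale, and type IV genes such as COL4A3 (-1.99) and COL4A4 (-1.93) stayed just under the limit for a call from Control to LR. COL4A3 passed it without Control replicate 1, Control replicate 3 (-2.10) or LR replicate 2 (-2.01). COL4A2 and COL4A4 passed the limit on low values only through the Control libraries. Their changes from Control, with the call of COL4A2 from Control to DTEP, are therefore descriptions. A value of at least 1 in all 3 libraries was reached by 28 members in Control, 24 in DTP cells, 16 in DTEP and 15 in LR. The same count was not made over all genes.

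**Figure D4:**
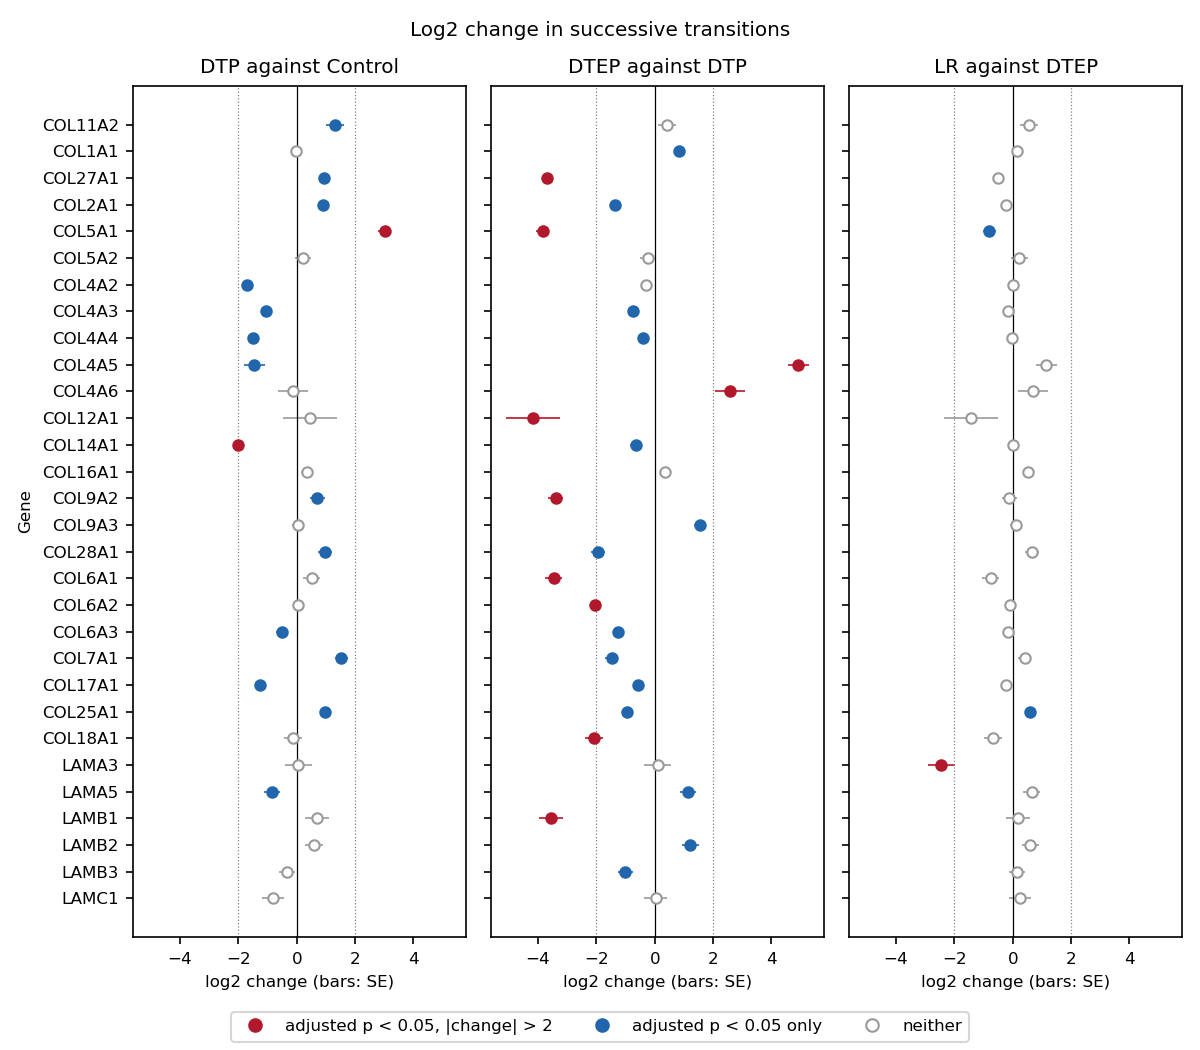
Log2 change of 30 members above the low-value limit in the transitions from Control to DTP, DTP to DTEP and DTEP to LR, on the log2(value + 1) scale, with bars for the SE of the fit. Red points had an adjusted p below 0.05 with a change of more than 2 in size (dotted lines), blue points the adjusted p alone, and open points neither. Most of the red points, 10 genes, are in the middle panel, 8 of them to the left of 0.

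**Figure D5:**
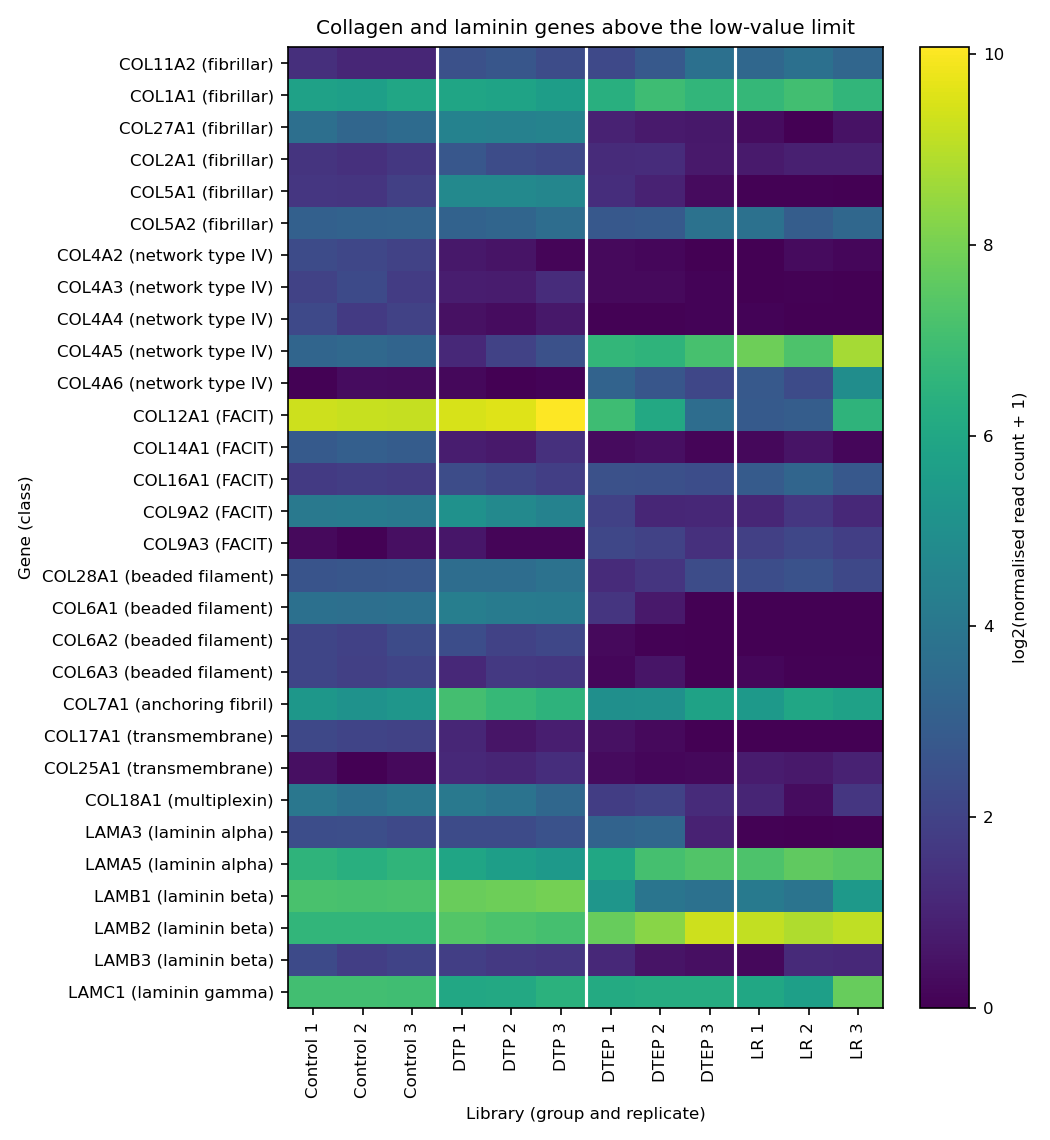
Log2(normalised read count + 1) of 30 members above the low-value limit in the 12 libraries, with rows ordered by class and white lines between groups. COL12A1 is the brightest row in Control and DTP, LAMB2 is the brightest row in every DTEP and LR library, and COL4A2, COL4A3, COL4A4 and the COL6 genes are at or near 0 in LR.

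The 25 silent members included whole chains of collagens and laminins. COL10A1, COL6A5, COL8A1, COL9A1 and LAMA1 had no read in any library, which allows a level of up to 0.173 in the shallowest. The other 20 had at least 1 read, and 23 of the 25 stayed below 1 in every library. COL20A1, a FACIT collagen, reached 1.41 and 1.18 in DTP replicates 1 and 2, and COL15A1, a multiplexin, 1.04 in DTP replicate 3. LAMA2, the alpha chain of muscle laminin, had 2 reads in all, and LAMA4, an alpha chain of vessels, had 7. Each collagen class but the anchoring fibril collagen had silent members, among them COL13A1 and COL23A1 of the transmembrane collagens and COL8A2 of the network collagens.

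Genes of collagen maturation, which encode enzymes that modify the chains and factors of their export, moved in both directions. Of 30 such genes in the table, 21 were tested, and from DTP to DTEP 4 were called higher and 2 lower, where 8.13% and 7.02% of all genes tested were. The 4 were P3H3, MIA3, PLOD2 and P4HA1. P3H3, a member of the prolyl 3-hydroxylase family, went from a mean of 0.0165 in DTP to 19.96 ± 2.61 in DTEP (adjusted p = 3.74e-09, limma). MIA3, which loads large collagens for export, went from 54.3 to 408, and the hydroxylases PLOD2 and P4HA1 from 8.84 to 60.2 and from 24.0 to 145. The 2 called lower were PXDN, the peroxidase that makes sulfilimine crosslinks in type IV collagen, from 64.1 ± 5.3 to 4.03 ± 3.73, and the lysyl oxidase LOXL4, from 82.3 ± 4.4 to 5.88 ± 5.61 (SD, n = 3). In LR the means were 0.0302 and 0.0484.

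Of 14 partners in the basement membrane, 8 were tested, and 2 were called higher and 4 lower from DTP to DTEP, beside the same 8.13% and 7.02% of all genes. NTN4, a netrin that binds laminin and loosens its network, rose from 4.56 ± 0.92 to 154 ± 23 (adjusted p = 2.99e-06, limma), and FBLN1 rose from 2.85 ± 0.19 to 22.9 ± 7.0. NTN1, TGFBI, FREM2 and FRAS1 fell. FREM2, which with FRAS1 forms an adhesion complex below embryonic epithelia, had means of 250.2 in Control, 92.6 in DTP cells, 18.3 in DTEP and 18.7 in LR. Perlecan (HSPG2) fell by 1.26 and then by 1.44 (adjusted p = 0.00897 and 0.00278, limma), while the nidogens NID1 and NID2, which link laminin to type IV collagen, were both below 1 in every group.

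Of 16 receptors for collagen and laminin, 13 were tested, and 2 were called higher and 1 lower from DTP to DTEP, where 8.13% and 7.02% of all genes were. ITGA6, an alpha chain of laminin-binding integrins, was at 55.3 ± 1.8 in Control, 11.0 ± 3.3 in DTP and 350 ± 73 in DTEP (adjusted p = 8.84e-09 from DTP to DTEP, limma). ITGA2, of a collagen-binding integrin, was at 31.2 ± 2.0, 6.38 ± 2.5 and 76.1 ± 49.2, and GP6 was the 1 called lower. Of 22 matrix proteases and their inhibitors, 13 were tested, and the only call from DTP to DTEP was the inhibitor TIMP2, which fell from 18.1 ± 1.6 to 2.06 ± 1.85 (SD, n = 3). From Control to DTP the inhibitor TIMP3 was called higher, with a rise of 2.51 (adjusted p = 0.00353, limma), where 1.01% of all genes were. From DTP to DTEP the 4 lists had medians of 0.23, -1.79, 0.32 and 0.02, beside 0.08 over all genes tested.

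Of the 31 members tested, 12 have a span that overlaps another gene of the table, and the counting is taken to have ignored strand. These include COL18A1 with SLC19A1, COL4A4 with RHBDD1 and COL9A3 with TCFL5, so their reads may be shared or lost. The pseudogene LAMB2P1 resembles LAMB2 and can take part of its reads.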

How the data were processed

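The authors made stranded mRNA libraries, aligned reads to hg38 and assigned them to RefSeq genes with Rsubread at default settings, which ignore strand. The deposited table holds a normalised signal per gene and library. All 199680 values above 0 (100%, within 1e-06) were whole multiples of the value of 1 read, and the scale equalled the TMM-adjusted CPM of edgeR 4.0.16 in all 12 libraries. Groups came from the sample titles. The collagen and laminin genes and the lists were chosen with earlier results of these data known. log2(value + 1) was fitted over all 12 libraries with limma 3.58.1 in R 4.3.3, without covariates and with a variance trend, over the 13794 genes that reached 1 in 3 or more libraries. P-values were two-sided, with Benjamini-Hochberg adjustment per comparison. Calls needed an adjusted p below 0.05 and a log2 change of more than 2 in size. The named members were the type IV, type VI, fibrillar and laminin genes and the 3 largest and 3 smallest changes among calls without overlap, and others were named after their values were seen. The counts cover all members, and the values of 1 tested gene are not reported here. Levels per kilobase used the union of GENCODE exons. Promoters were found for 41 of 56 members. Fits were tested on simulated reads. The alternatives were other pseudocounts, filters, scaling and cutoffs, only the 6 libraries compared, a replicate block, edgeR's quasi-likelihood test on the recovered reads, a coding-transcript length and each library left out.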

Additional observations from a re-analysis of the deposited data

How the results depend on the processing

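No change of a member at an adjusted p below 0.05 (limma) reversed direction under any alternative run. Changes of members above that p, and of genes outside the members, were not checked in this way. Of 1818 single-gene values under alternatives (95 results), 1729 kept their side of the threshold, 72 also passed it and 17 no longer passed it. Counts of members called moved more. For DTP against Control the 1 higher call became 2 with a pseudocount of 0.1 and 2 with edgeR on the recovered reads, and 3 with a change above 1. The 1 lower call became 3 with a pseudocount of 0.1, 2 with 0.5, 0 with a mean of at least 5, 0 with median-of-ratios scaling, 3 with edgeR and 6 with a change above 1. For DTEP against DTP the 2 higher calls became 1 with a mean of at least 5 and 5 with a change above 1, and the 9 lower calls 15 with edgeR and 14 with a change above 1. For LR against DTEP edgeR called 1 higher member in place of 0, and the 1 lower call became 2 with a pseudocount of 0.1, 0 with a mean of at least 5, 0 with only the 6 libraries compared (LAMA3, adjusted p = 0.287) and 3 with edgeR. For DTEP against Control the 2 higher calls became 4 with a pseudocount of 0.1, 1 with a mean of at least 5, 5 with edgeR and 5 with a change above 1, and the 9 lower calls 14, with a pseudocount of 0.1 or with edgeR, and 15 with a change above 1. For LR against Control the 10 lower calls became 16 with a pseudocount of 0.1, 6 with a mean of at least 5 and 17 with a change above 1. In that comparison edgeR and a pseudocount of 0.5 each also called COL4A2, COL4A3, COL4A4, COL5A1 and COL6A3 lower. They also called COL9A3 higher, and edgeR called COL25A1 higher. Other, smaller moves of the counts are not listed. Over all 13794 genes tested, edgeR called 487 higher and 783 lower for DTP against Control, and 1550 and 1738 for DTEP against DTP. The counts were 71 and 510 for LR against DTEP, 1009 and 1359 for DTEP against Control, and 1128 and 1645 for LR against Control. For the other alternatives, counts over all genes are not given. The member counts under those settings therefore have no share of all genes beside them and are not results about the members. A mean of at least 5 tests 16 members, and a smaller pseudocount raises changes of low genes by its construction. For other moves the cause was not tested. With each library left out in turn, the higher and lower counts ran from 1 to 1 and 0 to 1 for DTP against Control, 2 to 2 and 7 to 9 for DTEP against DTP, 0 to 0 and 0 to 2 for LR against DTEP, 2 to 4 and 6 to 9 for DTEP against Control, and 4 to 4 and 10 to 12 for LR against Control.

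Replicate numbers were shared by the groups, and whether they pair the libraries could not be settled from the values. Over 18 same-number pairs the correlation of deviations from the group means was -0.44 to 0.36 and exceeded 0.1 in 2. Those 2 were between DTP and DTEP, at 0.36 for replicate 1 and 0.34 for replicate 3. With the replicate number as a block, the counts of calls were 1 and 1, 2 and 9, 0 and 1, 2 and 9, and 4 and 10, as without it. Median-of-ratios scaling shifted the median of all genes by 0.05, -0.10, 0.04, -0.06 and -0.02 in the 5 comparisons. The length used per kilobase moved the LAMB2 to LAMB1 ratio from 1.85 to 0.699 in Control. Depth limits levels under 3 reads per library.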
